A study of Zea mays with 24 samples.

Results

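Transcripts of the mitochondrial cytochrome bc1 complex were followed through 2 of the 7900 probes with a value on the arrays. TC259322 is similar to the 14 kDa protein (CR14) of ubiquinol-cytochrome c reductase, and TC256120 is a homologue of cytochrome b. They were selected by name, after ND101/W23 ratios had brought up TC259322 and the difference between A619 and ND101/W23 had brought up TC256120, so those values are given below as a description without a test.

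The lines were A619, represented by a derivative of that line, the hybrid ND101/W23, made by crossing W23 as pollen parent onto ND101, and the inbred W23, which carries the bz2 mutation and lacks anthocyanin. Each line was sampled as 1 mm anthers, 1.5 mm anthers, juvenile leaf blade and mature pollen, with 3 biological replicates per tissue, giving 36 samples on 24 arrays of 2 colours. Each array carried A619 or ND101/W23 in one dye and W23 of the same tissue in the other, and the same W23 samples were used against both lines. Anthers came from upper florets, for the 1 mm stage usually of a single tassel, and the pollen of one individual made up a sample.

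The bc1 complex, or complex III, sits in the inner mitochondrial membrane, where it passes electrons from ubiquinol to cytochrome c and moves protons across the membrane. Cytochrome b, its central haem-carrying subunit, is encoded in the mitochondrial genome, whereas the 14 kDa subunit, a small protein without a redox centre, is encoded in the nucleus and imported. In plants the large core subunits of the complex also act as the mitochondrial processing peptidase, which cuts the targeting sequence off imported proteins. Mitochondria of maize pass through the seed parent, which for the hybrid was ND101, and anthers and pollen are known for a high demand on respiration.

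The 14 kDa transcript is the one of the pair for which the study designed PCR primers. These are shown, 5′ to 3′ and in lower case throughout, because they fix which cDNA the name TC259322 stands for.
TC259322 forward: cccctacttcgatctggaca
TC259322 reverse: tctgaatggaacctgctgtg
Both primers are 20 nt long, with a GC content of 55.0% in the forward and 50.0% in the reverse primer, and the PCR measurements made with them are not analysed here. The 60-mer probe of TC256120 lies at positions 626 to 685 of its EST assembly, and the name rests on a match that covers 5% of a cytochrome b fragment.

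All values below are log2 ratios of a line over W23 of the same tissue, so that 0 means equal signal, -1 a signal 2-fold lower in the line and 1 a signal 2-fold higher. For ND101/W23 a table legend of the study gives this direction, and for A619 it is likely from the like form of the array titles and the shared W23 samples. The array medians lay between -0.04 and 0.04. A ratio holds no level, so neither the identity of a tissue nor the signal of a probe over background can be checked from it, and the sequence of A619 or ND101 under either probe is not known here. In the lists of the study, TC256120 stands among transcripts particular to pollen, as distinct from anthers and leaf. That list holds transcripts expressed in all lines, so it does not settle presence in anthers or leaf of a single line, such as A619. TC259322 is marked as not detected in pollen of ND101/W23 and W23. Ratios of TC256120 in anthers and leaf, and of TC259322 in pollen, are therefore given on the log2 scale alone, without a fold.

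**Figure D1:**
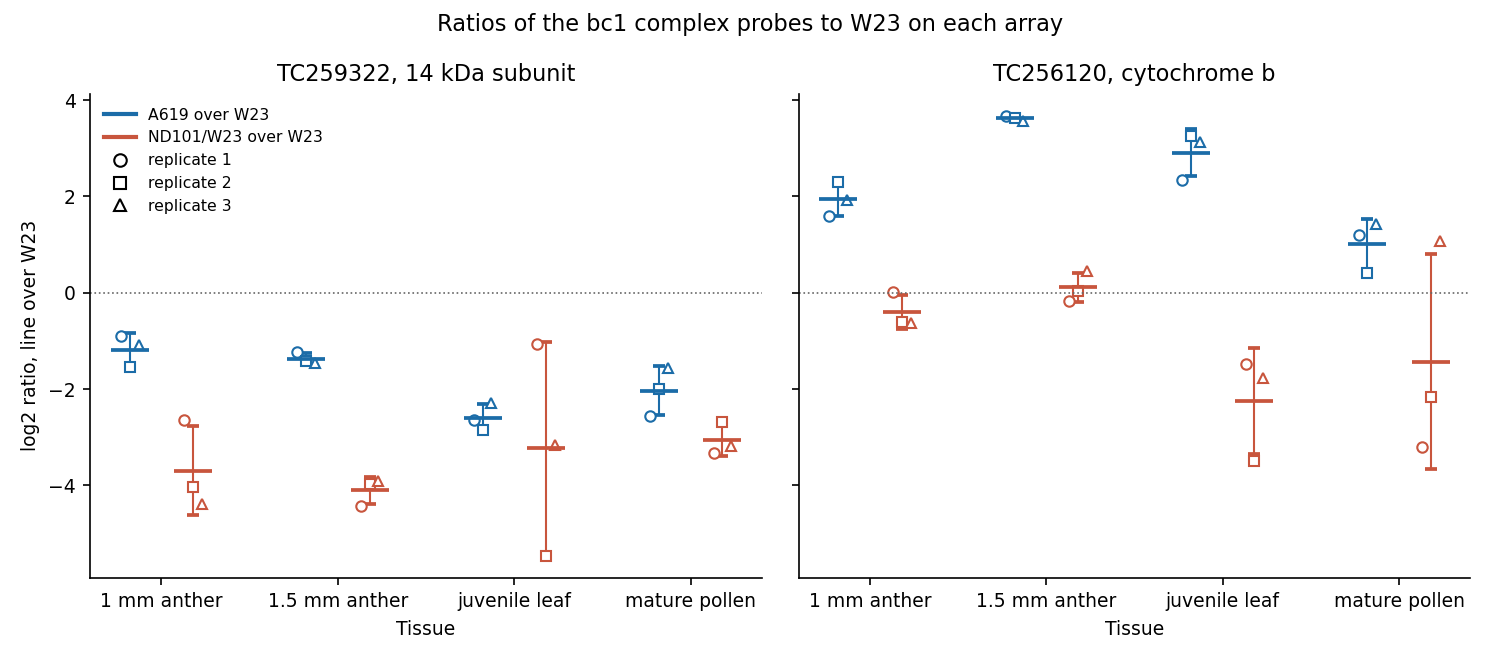
Log2 ratio of A619 (left of each pair) and ND101/W23 (right) over W23 on every array, by tissue, for both probes. Symbols mark replicates 1 to 3, horizontal bars the mean and error bars the SD of 3 arrays. TC259322 lies below 0 on all 24 arrays, whereas TC256120 lies above 0 on all 12 A619 arrays and on 4 of the 12 ND101/W23 arrays.

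TC259322, the 14 kDa subunit, gave less signal than W23 on every array of both lines. The 12 ND101/W23 arrays, which led to its selection, ran between -5.46 and -1.07 with a median of -3.62. In 1 mm anthers of ND101/W23 the ratios were -2.64, -4.03 and -4.39, a mean of -3.69 ± 0.92 (SD, n = 3). The mean stood lowest of all 7900 probes in that comparison. In 1.5 mm anthers they were -4.42, -3.96 and -3.91, with a mean of -4.10 ± 0.28, a signal 17.1-fold lower than in W23. In mature pollen they were -3.33, -2.69 and -3.17, with a mean of -3.06 ± 0.33. By mean the probe was the 4th lowest in 1.5 mm anthers and the 3rd lowest in pollen. In pollen the study marks it as not detected in both ND101/W23 and W23, so its place there says nothing of a transcript level.

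Juvenile leaf was the least even tissue for TC259322 in ND101/W23. The ratios were -1.07, -5.46 and -3.16, and the mean of -3.23 carried an SD of 2.20. Replicate 2 was the lowest and replicate 1 the highest of the 12 hybrid arrays. Without replicate 1 the leaf mean was -4.31, and without replicate 2 it was -2.12.

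A619 also gave a lower TC259322 signal than W23, by a smaller amount. The A619 arrays were not used to select the probe, although they share the W23 samples with the hybrid arrays, so the ratios of both lines are not independent. The A619 ratios were -0.89, -1.55 and -1.09 in 1 mm anthers, with a mean of -1.18 ± 0.34 (SD, n = 3). At the 1.5 mm stage they were -1.23, -1.42 and -1.46, averaging -1.37 ± 0.12. In juvenile leaf they were -2.64, -2.85 and -2.28, averaging -2.59 ± 0.29. In mature pollen they were -2.55, -1.99 and -1.56, averaging -2.03 ± 0.50. All 12 A619 arrays were below 0, with leaf the lowest and 1 mm anthers the highest by mean.

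Tested with limma over all probes, the TC259322 ratio passed in A619 in 3 of the 4 tissues. The W23 samples under these ratios are shared with the hybrid arrays that led to the selection, so the p-values are not free of it. A call required a Benjamini-Hochberg adjusted p under 0.05 and 3 ratios of one sign, and the share of all probes called lower under this rule was 2.04% for 1 mm anthers, 11.6% for 1.5 mm anthers, 18% for leaf and 0.899% for pollen. In 1.5 mm anthers the signal was 2.58-fold lower (log2 ratio -1.37, SE 0.14, limma adjusted p = 0.00164). In leaf it was 6.02-fold lower (-2.59, SE 0.69, limma adjusted p = 0.0224), with a spread estimated on the arrays of both lines. In pollen the log2 ratio of -2.03 (SE 0.21, limma adjusted p = 0.0074) passed as well, against a W23 signal that the study marks as not detected, so it measures no fold. The 1 mm anther ratio of -1.18 (SE 0.31, 95% confidence interval -1.90 to -0.45) did not pass, with a limma adjusted p of 0.0951.

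These calls depended on single replicates. The limma adjusted p became 0.056 in 1.5 mm anthers and 0.0739 in leaf without replicate 3, and 0.153 without replicate 1 and 0.0744 without replicate 3 in pollen. In these fits fewer of all probes were called too. The number went from 1603 to 191 in 1.5 mm anthers and from 3312 to 2988 in leaf. In pollen it went from 121 to 0 without replicate 1 and to 9 without replicate 3. Rank Products, 1 of the 12 alternatives, gives a false discovery rate in place of a limma adjusted p. Over all 12 the value ranged between 0.0124 and 0.507 for 1 mm anthers and between 0.00164 and 0.0617 for 1.5 mm anthers. It ranged between 0.000124 and 0.123 for leaf and between 0.00324 and 0.153 for pollen, while the ratio stayed below 0 in each alternative. The 0.0617 and the 0.00324 came from Rank Products. TC259322 is one of 13 probes, 0.166% of the 7817 measured on all 24 arrays, with a ratio below 0 on every array. That count includes the hybrid arrays used to select it and takes the likely direction of the A619 ratios. With the A619 ratios turned, these 13 would be above 0 in A619, and 1 other probe (0.013%) would be below 0 on every array.

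TC256120, annotated as cytochrome b, set the lines apart. In A619 its signal was above W23 on all 12 arrays, between 0.41 and 3.68 with a median of 2.33, as for 1.51% of the probes measured on all arrays. The ratios in 1 mm anthers of A619 were 1.60, 2.30 and 1.92, with a mean of 1.94 ± 0.35 (SD, n = 3). In 1.5 mm anthers they were 3.68, 3.63 and 3.56, with a mean of 3.62 ± 0.06. This was the highest and the most even group of the probe, and the 12th highest mean of 7876 probes in that comparison. In juvenile leaf of A619 the ratios were 2.35, 3.25 and 3.13, with a mean of 2.91 ± 0.49. In mature pollen they were 1.19, 0.41 and 1.43, with a mean of 1.01 ± 0.53 or 2.01-fold higher. Pollen, the tissue to which the study assigns the transcript, had the smallest ratio in A619. The list does not settle whether the anther and leaf signals of A619 count as present, so this order shows no tissue pattern of the transcript.

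In ND101/W23 the cytochrome b probe stayed near W23 in anthers and lay below W23 in leaf. The list of the study assigns its transcript to pollen and does not settle its presence in anthers or leaf of a single line. The ratios were 0.02, -0.60 and -0.62 in 1 mm anthers, averaging -0.40 ± 0.36. At the 1.5 mm stage they were -0.16, 0.04 and 0.45, averaging 0.11 ± 0.31. Neither anther stage had 3 ratios of one sign. In juvenile leaf they were -1.47, -3.50 and -1.76, averaging -2.24 ± 1.10, and this mean was the 13th lowest of 7882 probes. In mature pollen they were -3.20, -2.17 and 1.07, averaging -1.43 ± 2.23. The pollen mean was uneven, at -2.69 without replicate 3, the only array of the group above 0, and at -0.55 without replicate 1.

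Replicate 3 of pollen was also the array of that group with the line in the other dye, according to the labels. The dye coefficient fitted over all 24 arrays was -0.34 (SE 0.17) for TC256120 and -0.03 (SE 0.18) for TC259322, and the 5th and 95th percentiles of all probes were -0.22 and 0.21. Its part in the pollen ratios was not tested. The 330 probes on the list of pollen transcripts, to which TC256120 belongs, had array medians between -0.455 and -0.03 in A619 leaf and between -0.40 and -0.005 in ND101/W23 leaf. In 1 mm anthers of ND101/W23 these medians lay between 0.02 and 0.44, and the part of pollen transcripts in the TC256120 ratios was not tested.

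**Figure D2:**
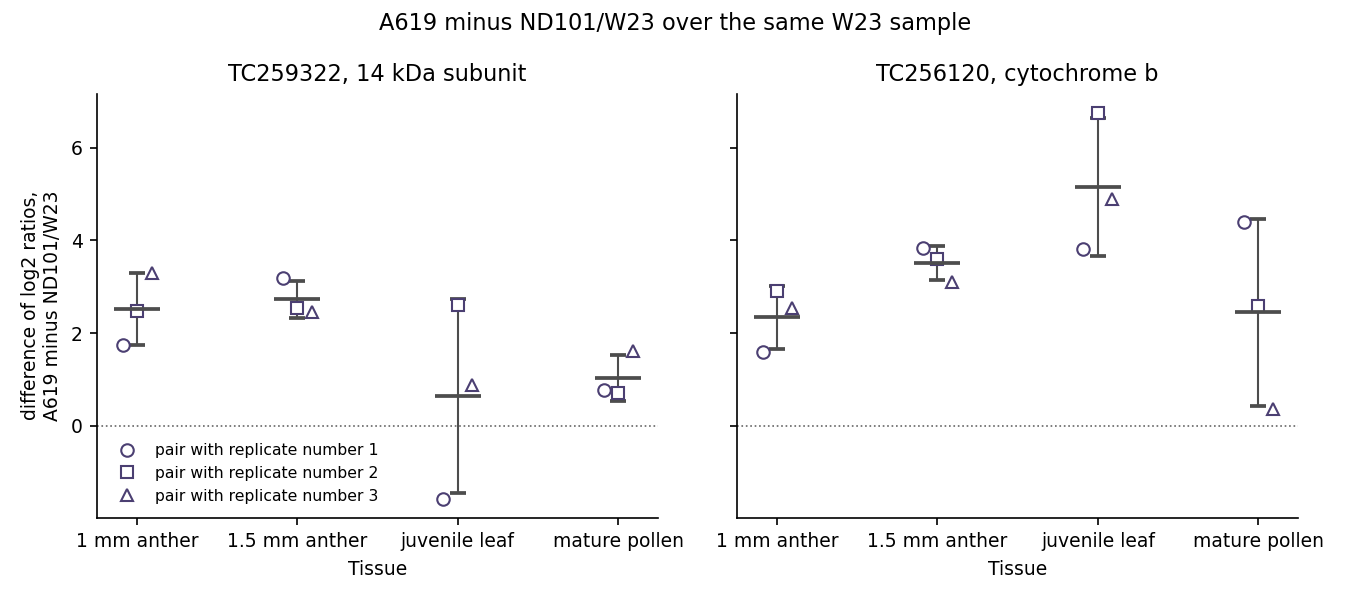
Difference of log2 ratios, A619 minus ND101/W23, for the 3 pairs of arrays of each tissue that share a W23 sample. Symbols mark the replicate number, horizontal bars the mean and error bars the SD of 3 pairs. TC256120 differs by 0.36 to 6.75 with all 12 pairs above 0, and TC259322 by -1.57 to 3.30 with 1 leaf pair below 0.

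Set over the same W23 sample, both probes were higher in A619 than in ND101/W23. The W23 signal cancels in such a pair, and the differences are described without a test because the selection used them. For TC259322 in 1 mm anthers the pairs differed by 1.75, 2.48 and 3.30, with a mean of 2.51 ± 0.78 (SD, n = 3 pairs). At the 1.5 mm stage they differed by 3.19, 2.54 and 2.45, with a mean of 2.73 ± 0.40, or 6.63-fold more signal in A619. In both anther stages the A619 arrays lay above the hybrid arrays without overlap, as did those of 11.2% of all probes in 1 mm anthers and 13% in 1.5 mm anthers. In leaf the TC259322 pairs differed by -1.57, 2.61 and 0.88, a mean of 0.64 ± 2.10 that was smaller than its spread. In pollen they differed by 0.78, 0.70 and 1.61, with a mean of 1.03 ± 0.50, and here too the lines did not overlap, as for 6.36% of all probes. The study marks the ND101/W23 signal in pollen as not detected.

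The cytochrome b probe was higher in A619 in each of the 12 pairs. The list of the study assigns its transcript to pollen over all lines, and does not settle presence in anthers or leaf of a single line. The differences were 1.58, 2.90 and 2.54 in 1 mm anthers, averaging 2.34 ± 0.68 (SD, n = 3 pairs). In 1.5 mm anthers they were 3.84, 3.59 and 3.11, averaging 3.51 ± 0.37. In leaf they were 3.82, 6.75 and 4.89, averaging 5.15 ± 1.48. Anthers and leaf of A619 were above those of ND101/W23 without overlap, for which the share of all probes in leaf was 21.6%. In pollen the pairs differed by 4.39, 2.58 and 0.36, averaging 2.44 ± 2.02, with 1.47 without replicate 1 and 3.48 without replicate 3. There the lines overlapped, since the hybrid ratio of 1.07 exceeded the A619 ratio of 0.41.

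**Figure D3:**
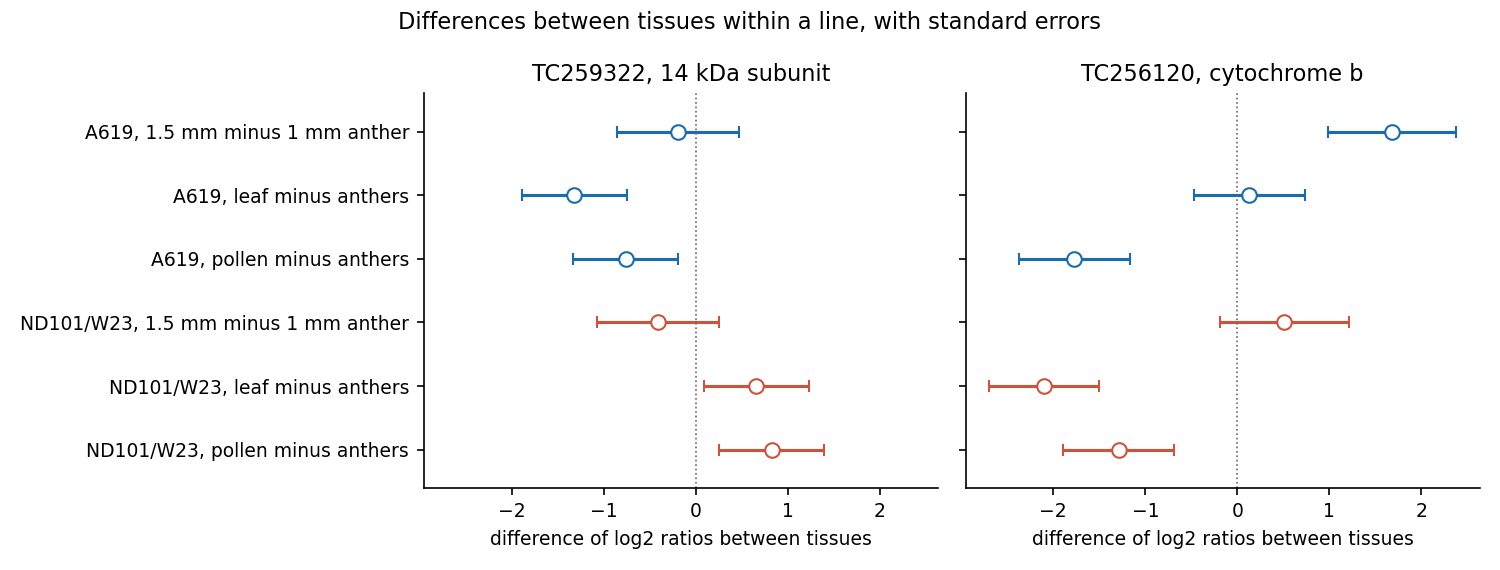
Differences of log2 ratios between tissues within A619 (upper 3 lines) and within ND101/W23 (lower 3 lines), for both probes. Circles are estimates from limma on all 24 arrays and bars their standard errors. The estimates lie between -1.32 and 0.83 for TC259322 and between -2.10 and 1.68 for TC256120.

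Differences between tissues in the ratio of a line to W23 were fitted within each line, with 3 contrasts per line. Only those of TC259322 in A619 are given with a test. The other contrasts are built from the ratios by which the probes were selected and are given as a description with the standard error. In the A619 contrasts 2.72% of all probes were called for 1.5 mm minus 1 mm anthers, 40.4% for leaf minus anthers and 9.12% for pollen minus anthers, and TC259322 in none of them.

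For TC259322 in A619 leaf minus anthers gave -1.32 (SE 0.57, 95% confidence interval -2.51 to -0.12, limma adjusted p = 0.0727). The 3 leaf arrays lay below all 6 anther arrays, as for 16.7% of all probes. With arrays scaled to one median absolute deviation this difference was only -0.12 (limma adjusted p = 0.915), and the adjusted p ranged between 0.000726 and 0.915 over 9 alternatives. In A619 pollen minus anthers gave -0.76 (95% confidence interval -1.95 to 0.43) and 1.5 mm minus 1 mm anthers gave -0.19 (95% confidence interval -1.57 to 1.18). By mean the A619 ratios descended in the order 1 mm anther, 1.5 mm anther, pollen and leaf, and the anther stages overlapped with each other, as did pollen and leaf. These intervals leave room for differences of 2-fold and more, so the tissues are not shown to be alike. In ND101/W23 the differences were 0.66 for leaf minus anthers (SE 0.57), 0.83 for pollen minus anthers (SE 0.57) and -0.41 between the anther stages (SE 0.66). Leaf overlapped with every other hybrid tissue.

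By mean, the TC256120 ratios stood in another order of tissues in each line. Of these tissues, the list of the study assigns the transcript to pollen, without settling its presence elsewhere in a single line. In ND101/W23 the cytochrome b ratio in leaf minus anthers was -2.10 (SE 0.60), and the 3 leaf arrays lay below all 6 anther arrays, as for 9.39% of all probes. For 1.5 mm minus 1 mm anthers it was 0.51 (SE 0.70), and for pollen minus anthers -1.29 (SE 0.60), a value of -2.51 without replicate 3 and of -0.37 without replicate 1. In A619 the 1.5 mm stage stood above the 1 mm stage by 1.68 (SE 0.70), without overlap, as for 13.4% of all probes. With arrays scaled to one median absolute deviation this difference was 0.45. The A619 ratio in pollen minus anthers was -1.77 (SE 0.60), with pollen below all 6 anther arrays, as for 6.56% of all probes, and in leaf minus anthers it was 0.13 (SE 0.60).

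**Figure D4:**
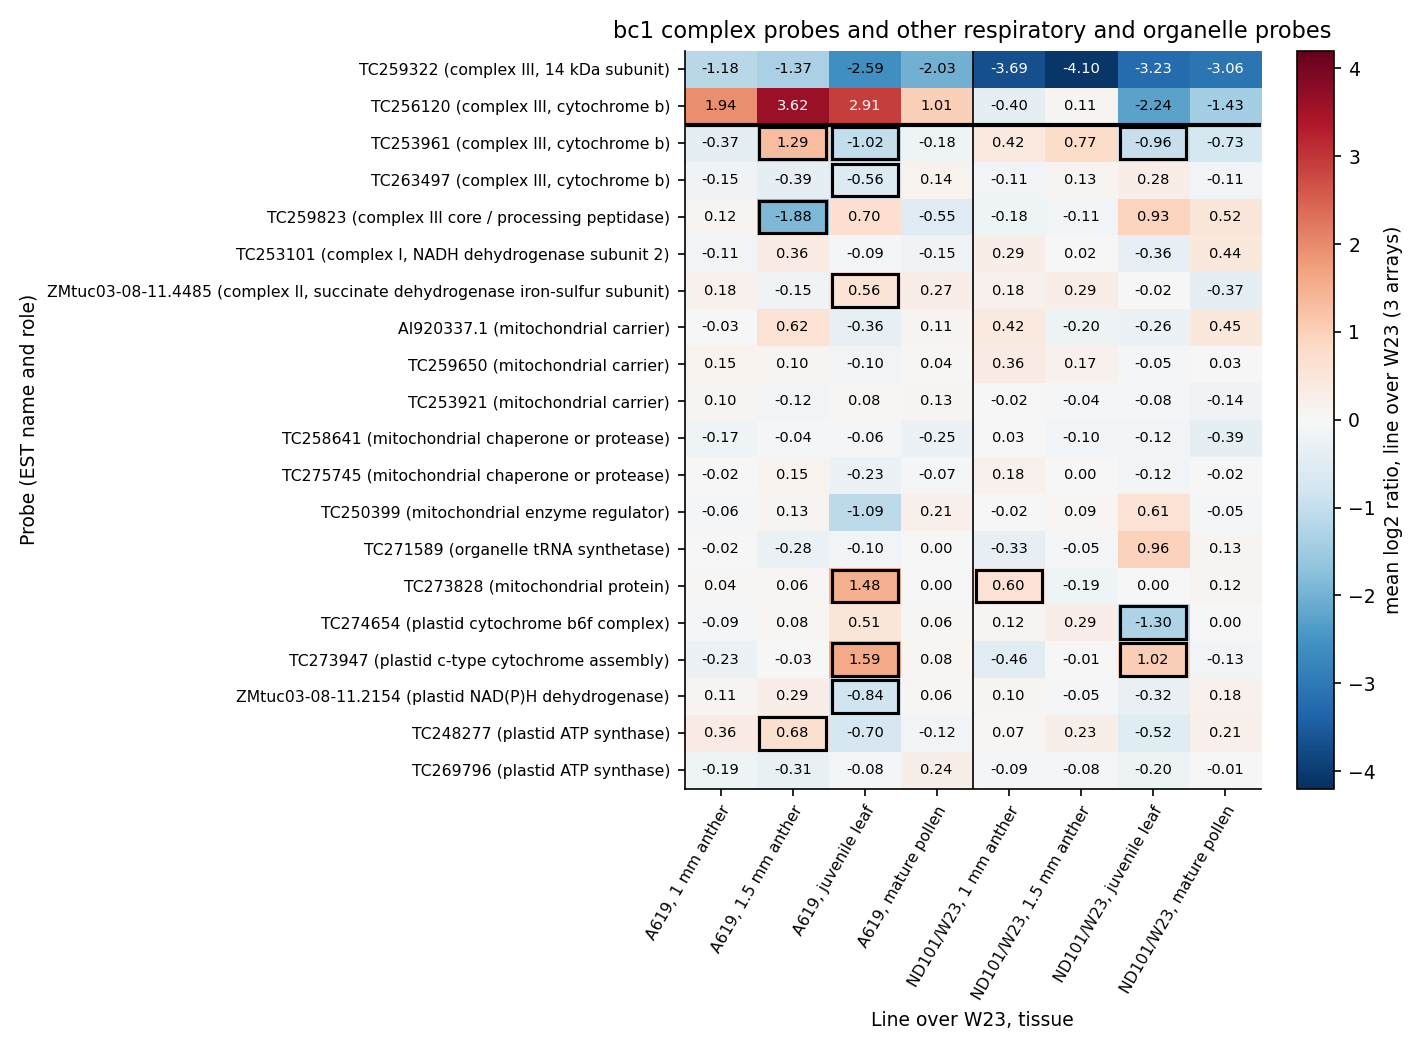
Mean log2 ratio over W23 (3 arrays) of both bc1 complex probes, above the thick line, and of 18 other respiratory and organelle probes, in A619 (left 4 columns) and ND101/W23 (right 4 columns). Black frames mark calls by limma, drawn for the 18 probes only. Values of the 18 lie between -1.88 and 1.59, and those of the bc1 pair, which was brought up by such ratios, between -4.10 and 3.62.

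The 18 other probes with a respiratory or organelle name had mean ratios between -1.88 and 1.59. The bc1 pair ran between -4.10 and 3.62, but it had been brought up by such ratios, so its wider range follows from the selection. The 18 probes comprise complex III, complexes I and II, mitochondrial carriers, chaperones and enzymes, and plastid electron transport. In 13 of 144 tests a probe was called, for 9 of the 18 probes, with 9 calls in A619 and 4 in ND101/W23. These totals show nothing particular to the list without the shares of all probes, given next for each comparison. No share of all probes called at least once was computed. In A619 leaf 3 of 18 were called higher and 3 lower, beside 23.9% and 18% of all probes. In 1.5 mm anthers of A619 2 were higher and 1 lower, beside 8.65% and 11.6% of all probes, and in ND101/W23 leaf 1 was higher and 2 lower, beside 5.85% and 4.41%. In 1 mm anthers of ND101/W23 1 was called higher, beside 2.47% of all probes. None of the 18 was called by limma in 1 mm anthers or pollen of A619, beside 4.14% and 1.53% of all probes in either direction, or in 1.5 mm anthers or pollen of ND101/W23, beside 3.96% and 0.937%. At an unadjusted p under 0.05 limma gave 1, 0, 1 and 1 of the 18 in these 4 comparisons, and Rank Products called 0. In the comparisons with limma calls, Rank Products called 1 of the 18 in 1.5 mm anthers of A619, 1 in ND101/W23 leaf and 0 in A619 leaf and 1 mm anthers of ND101/W23, which makes 2 calls against the 13 by limma. The median ratio of the 18 lay between -0.10 and 0.08 over the 8 comparisons, beside -0.03 to 0.03 for all probes.

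The bc1 pair lay on opposite sides of 0 in A619, so no probe could follow both members. Each of the other complex III probes had A619 means on both sides of 0 over the tissues. TC253961, a second cytochrome b match, had A619 ratios of 0.53, 1.64 and 1.69 in 1.5 mm anthers (mean 1.29, limma adjusted p = 0.012) and of -1.14, -1.07 and -0.84 in leaf (mean -1.02, limma adjusted p = 0.000826). It therefore rose in A619 in one tissue and fell in the other. In ND101/W23 leaf its ratios of -0.86, -1.14 and -0.88 were also low (mean -0.96, limma adjusted p = 0.0115). TC263497, another cytochrome b fragment, fell in A619 leaf with ratios of -0.81, -0.55 and -0.33 (mean -0.56, limma adjusted p = 0.0198). In leaf of A619, where TC256120 averaged 2.91, the other cytochrome b probes were both below 0. The name of TC256120 rests on a match to 5% of a fragment, so a difference between cytochrome b transcripts is not shown. TC259823, the beta subunit of the mitochondrial processing peptidase and so of the complex III core, fell in 1.5 mm anthers of A619, with ratios of -1.86, -1.73 and -2.04 (mean -1.88, limma adjusted p = 0.000466). In the other 3 tissues of A619 its means were 0.12, 0.70 and -0.55, and none passed.

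Outside complex III the calls were scattered over leaf and anthers. The iron-sulfur subunit of succinate dehydrogenase in complex II rose in A619 leaf to a mean of 0.56 (limma adjusted p = 0.0393). TC273828, a maize mitochondrial protein without a stated function, rose in A619 leaf to 1.48 (limma adjusted p = 0.00138) and in 1 mm anthers of ND101/W23 to 0.60 (limma adjusted p = 0.0425). TC273947, similar to a protein of c-type cytochrome assembly in plastids, rose in leaf of A619 to 1.59 (limma adjusted p = 0.00237) and of ND101/W23 to 1.02 (limma adjusted p = 0.0467). Among plastid complexes, TC274654, cytochrome b6 of the cytochrome b6f complex, which is the plastid counterpart of complex III, fell in ND101/W23 leaf to -1.30 (limma adjusted p = 0.0282). A subunit of the plastid NAD(P)H dehydrogenase fell in A619 leaf to -0.84 (limma adjusted p = 0.0223). TC248277, the plastid ATP synthase beta chain, rose in 1.5 mm anthers of A619 to 0.68 (limma adjusted p = 0.0216). The probes of TC274654 and TC248277 run in reverse along their EST assemblies, and the strand they read was not analysed here.

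**Figure D5:**
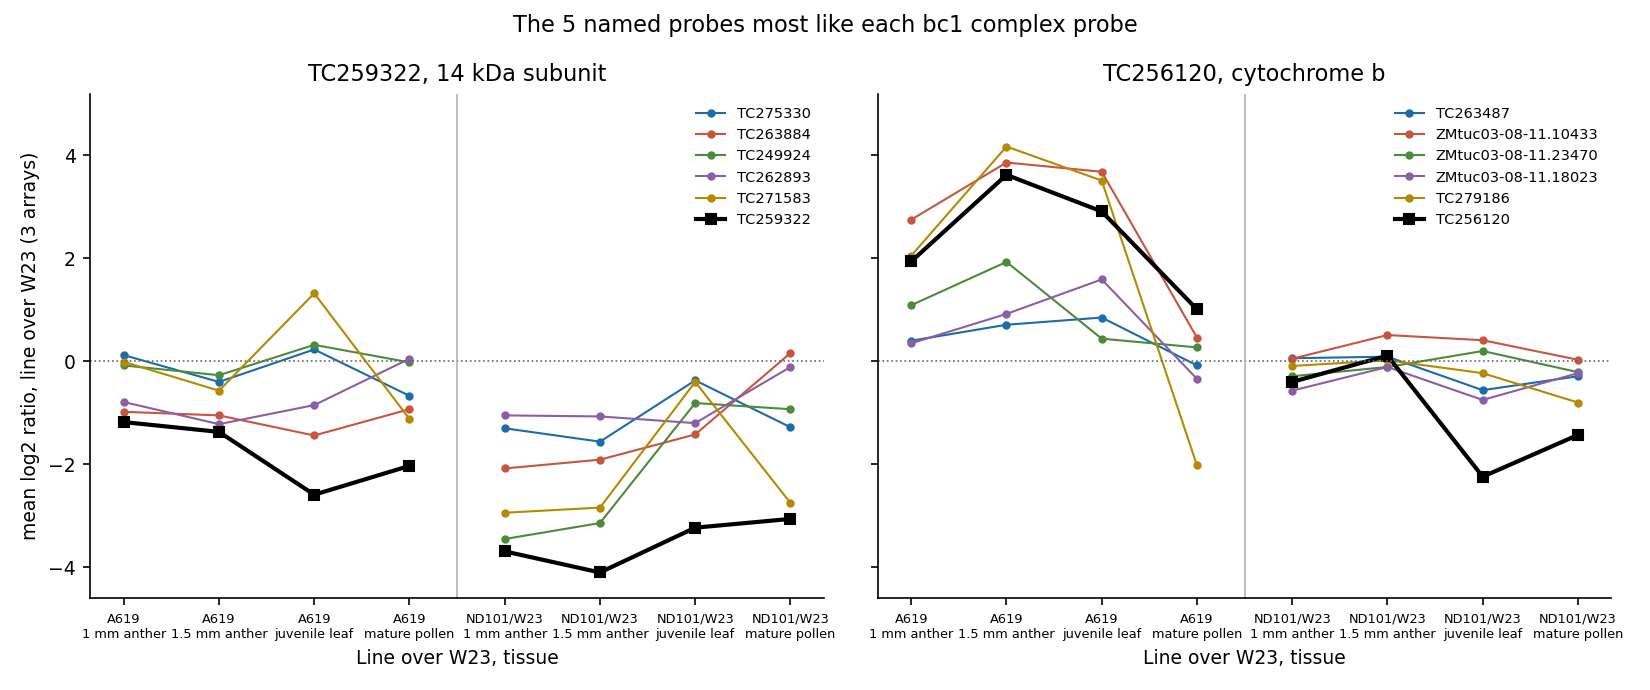
Mean log2 ratio over W23 (3 arrays) in each line and tissue for both bc1 complex probes (black) and for the 5 named probes most like each of them by uncentred correlation over 24 arrays. The 5 probes most like TC259322 lie between -3.45 and -1.05 in ND101/W23 anthers, and the 5 most like TC256120 lie between 0.35 and 4.17 in A619 anthers and between -0.57 and 0.51 in ND101/W23 anthers.

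The ratios of the bc1 pair did not resemble each other across the arrays, with an uncentred correlation of -0.048 over 24 arrays. The arrays share W23 samples, and the correlations are given as a description. For TC259322 the most similar probes with a name in the study's tables were TC275330, a putative transposase (0.802), TC263884, similar to MURAZC (0.787), and TC249924, a vesicle transport v-SNARE (0.764). TC262893, weakly similar to a salt tolerance protein (0.747), and TC271583, a hypothetical protein of rice (0.739), came next. Of these, TC249924 had the most similar hybrid anther means, -3.45 in 1 mm and -3.14 in 1.5 mm anthers, but A619 means there of -0.08 and -0.27.

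For TC256120 the most similar named probe was TC263487, the CP-47 apoprotein of photosystem II, which is encoded in the plastid genome (0.809). A putative ubiquitin-conjugating enzyme (0.794) followed, with A619 means of 2.75, 3.86 and 3.68 in 1 mm anthers, 1.5 mm anthers and leaf and of 0.46 in pollen. These were close in size to those of TC256120, whereas the CP-47 means in A619 did not exceed 0.85. A hypothetical protein (0.748), a probe of unknown product (0.747), and TC279186, with a partial match to a capsid protein (0.744), completed the set. None of the 18 respiratory and organelle probes was among either set of 5. Each set was drawn from 1576 named probes, of which 18 would seldom enter a set of 5, so their absence shows no unlikeness. Of the 10 probes most like each member among all probes, 10 for TC259322 and 9 for TC256120 have no name in the tables, and the highest correlations were 0.883 and 0.865.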

How the data were processed

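RNA of 3 maize lines was amplified, labelled and hybridized to 60-mer arrays by the authors, who processed the images with Agilent Feature Extraction, removed saturated spots and retained probes above thresholds from negative controls in at least 1 experiment. The deposited log2 ratios had been normalized by the authors array by array, with loess on rank-invariant probes, and triplicates were brought to one variance. They cover 7884 to 7900 of 21939 probes per array, and the number of arrays limits the precision. Dye-swapped arrays had already been turned, since arrays of opposite dye correlated at 0.116 to 0.792 within comparisons. Labels and the study's design scheme give opposite dyes for each array, so the direction was taken from ND101/W23 over W23 as a table legend of the study states it. For A619 the same direction is likely, from the same form of titles and from the shared W23 samples. Probe numbers of the tables were joined at an offset of 3, at which 22 of 22 known accessions matched, and 1610 probes have an EST name.

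Ratios of a line to W23 were tested with limma 3.58.1 in R 4.3.3 on the 6 arrays of a tissue, and tissue contrasts of TC259322 in A619 on all 24 arrays, with Benjamini-Hochberg adjustment over all probes at 0.05 and, against W23, 3 ratios of one sign. The scripts for tables and plots used Python 3.11.15, numpy 2.4.6, pandas 2.3.3, scipy 1.17.1 and matplotlib 3.10.9, and the tests were run on simulated data first. By the study's design scheme, an A619 and an ND101/W23 array of one replicate number carry one W23 sample. Their deviations from the comparison means correlated at 0.20 to 0.645 in the 12 pairs with the same number and at -0.575 to 0.222 otherwise. Arrays of one number also share the dye orientation, so these correlations cannot show a shared W23 sample. The pairing rests on the design scheme. The other tissue contrasts, planned as tests, are given as a description because the ratios in them had selected the probes. The members, lists and tests were chosen with earlier results of these data known. The text names both members, the 5 named probes most like each by uncentred correlation, and the listed respiratory and organelle probes called in at least 1 comparison. The alternatives were centring on the array median, arrays scaled to one median absolute deviation, each replicate left out, the replicate block, other sets of arrays or probes, a dye coefficient, no sign requirement and Rank Products, the test in the study's methods. Intensities, antisense classes and PCR measurements were not used. No detection call was made here, but the study's pollen list and its marks of transcripts not detected limited which folds are given and how ratios are read. Replicates are biological samples of a line and tissue.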

Additional observations from a re-analysis of the deposited data

Results flagged for a closer look

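TC256120 is listed by the study as particular to pollen, and that list does not settle whether its leaf signal counts as present in a single line. In juvenile leaf the 3 TC256120 ratios were above 0 in A619 and below 0 in ND101/W23, a difference of 5.15. It was not tested because the probe had been selected for it. In the same tissue TC263497 (cytochrome b) was below 0 on all A619 arrays and above 0 on all ND101/W23 arrays, a difference of -0.84, and TC274654 (cytochrome b6) was above 0 on all A619 arrays and below 0 on all ND101/W23 arrays, a difference of 1.82. Neither difference was tested. TC253961 (cytochrome b) had ratios below 0 in leaf and above 0 in 1.5 mm anthers of A619, a difference of -2.30 for leaf minus 1.5 mm anthers, which was not tested.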

How the results depend on the processing

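Of 7 tested and 29 described results for the bc1 pair, 136 of 156 values under other settings, and 101 of 108 with a replicate left out, gave the same direction and call or lay within 1 SD. Part of the 156 could not differ, so the count is no measure of support. The replicate block, probes with a value on all arrays and the fit on a line alone leave a described estimate unchanged. Array medians of -0.04 to 0.04 also left little for centring to move. The cause of a shift was not tested. With arrays scaled to one median absolute deviation, TC259322 in A619 was -1.71 in 1 mm anthers (called, limma adjusted p = 0.0124) and -1.59 in leaf (not called, limma adjusted p = 0.123), and TC256120 in A619 was 2.82, 3.27 and 1.79 in 1 mm anthers, 1.5 mm anthers and leaf. The ND101/W23 ratios of TC259322 became -4.53 in 1.5 mm anthers and -4.17 in pollen. A619 minus ND101/W23 became 1.68, 3.29 and 1.73 for TC259322 in 1 mm anthers, 1.5 mm anthers and pollen, and 3.19 for TC256120 in 1 mm anthers. The contrasts between tissues became 0.48 (1.5 mm minus 1 mm anthers) and -0.12 (leaf minus anthers) for TC259322 in A619, -1.13 (1.5 mm minus 1 mm anthers) and -0.21 (pollen minus anthers) for TC259322 in ND101/W23, and 0.45 (1.5 mm minus 1 mm anthers) and -1.26 (leaf minus anthers) for TC256120 in A619, so that 3 of them changed sign.

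With the arrays of the comparison or line alone, TC259322 in A619 passed in 1 mm anthers (-1.18, limma adjusted p = 0.014) and in leaf minus anthers (-1.32, limma adjusted p = 0.000726). Rank Products called TC259322 in A619 in 1 mm anthers (-1.18, false discovery rate 0.025) and not in 1.5 mm anthers (-1.37, false discovery rate 0.0617).

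With each replicate left out in turn, TC259322 in A619 ranged between -1.44 and -1.32 at the 1.5 mm stage, between -2.75 and -2.46 for leaf and between -2.27 and -1.77 for pollen. TC256120 in A619 ranged between -2.00 and -1.38 for pollen minus anthers. In ND101/W23 the difference of 1.5 mm minus 1 mm anthers ranged between -0.85 and 0.28 for TC259322 and between 0.23 and 0.85 for TC256120.

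A replicate block for the shared W23 sample was fitted for 24 values and changed no call among the 7 tested results. In this balanced design a block cannot move the estimates, so their unchanged direction is no support. With the block, TC259322 in A619 leaf was -2.59 (limma adjusted p = 0.0286).

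The number of all probes called moved more. For A619 in 1 mm anthers it was 327, with 282 to 706 under the other settings and 44 to 75 with a replicate left out. At the 1.5 mm stage it was 1603 (286 to 1944, and 191 to 1506), in leaf 3312 (327 to 3635, and 1616 to 2988), in pollen 121 (46 to 373, and 0 to 122). For ND101/W23 in the same order it was 557 (117 to 736, and 0 to 383), 313 (30 to 536, and 0 to 923), 810 (188 to 1818, and 0 to 447) and 74 (34 to 326, and 0 to 89). In A619 leaf minus anthers gave 3188 (1512 to 3462, and 1887 to 2711), pollen minus anthers 720 (706 to 875, and 273 to 582) and the anther stages 215 (168 to 322, and 9 to 132). With 3 arrays per group, small differences were not detectable.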
